A study of Mus musculus with 4 samples.

Results

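Cluster 8 is 1 of the 17 groups of like chromatin accessibility that the authors drew on single cells of PB3, a mouse mammary tumor cell line. Its members here are all cells with this cluster number in the libraries of untreated cells, 2383 of 18944 untreated cells and of 43782 cells in all. It is called by its number, because the files used here hold totals per cell and no value of a single gene or peak. The untreated cells had received no drug, and the other cells of the study had gone through 4 rounds of 500 nM eribulin for 72 h with 48 h of recovery. Both conditions were profiled once on nuclei, as the ATAC readout of a multiome assay (run 3), and once by single-cell ATAC-seq (scATAC, run 1), so run and protocol cannot be told apart. Cluster 8 had 1120 of 9583 cells in the untreated multiome library, which is 11.7% (11.1 to 12.3). In the untreated scATAC library it had 1263 of 9361 cells, or 13.5% (12.8 to 14.2). Intervals are exact 95% binomial (Clopper-Pearson) intervals and cover counting error only.

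In ATAC-seq the Tn5 transposase cuts DNA that is not covered by nucleosomes or other proteins, so that cut sites gather at active promoters and enhancers. Cells of 1 tumor line can differ in which of these elements are accessible, and such differences can be passed on through cell divisions. Lentiviral barcodes, short DNA tags that integrate into the genome, are inherited by all descendants of an infected cell and so mark lineages. Cluster 8 was drawn on the peaks of the same cells, and each library is a single sample. Its differences from other cells are therefore given as a description, with no test. The method of the barcode calls was not given in the sources used here.

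Cluster 8 is an untreated cluster by its make-up, as 98.4% of the 2421 cells with this number came from the untreated libraries. The other 38 were 26 eribulin multiome cells (0.320% of that library) and 12 eribulin scATAC cells (0.072%). These eribulin cells had median nucleosome signals of 0.626 in the multiome and 0.673 in the scATAC library, against 0.905 and 1.03 for untreated cells of the same cluster. The other cells of the eribulin libraries were also low, at 0.669 in the multiome and 0.756 in scATAC. In each protocol 1 eribulin cell of cluster 8 exceeded the untreated median of the cluster. Of the untreated cells, 124 in the multiome and 216 in the scATAC library had a cell barcode that also occurred in another library, and 11 and 28 of these lay in cluster 8.

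Depth was taken as the deposited count in peaks per cell, called cut sites here. Whether it counts cut ends or whole fragments was not given in the sources used here. Cluster 8 cells were of average depth. In the multiome library they had a median of 5188 cut sites in peaks (quartiles 3436.5 and 7506), against 5221 (3495 and 8092) in the other cells, and 49.6% (46.7 to 52.6) of them lay above the median of the others. In scATAC the cluster 8 median was 7782 (5162.5 and 11888), against 7391 (4747 and 11336.5), with 53.4% (50.6 to 56.1) of the cells above the median of the others. The cluster thus lay at the library median in the multiome and slightly above it in scATAC. The cells reached 32162 cut sites in the multiome and 47466 in scATAC, and their lowest values were 1018 and 1120. The number of peaks detected followed the same order, with medians of 4732.5 against 4790 in the multiome and 6883 against 6543 in scATAC. Enrichment at transcription start sites, a measure of how far cuts gather at promoters, was close to that of the other cells. Its median was 5.03 against 5.01 in the multiome, where 51.4% (48.5 to 54.4) of cluster 8 cells lay above the median of the others, and 4.95 against 4.998 in scATAC, where 47.4% (44.6 to 50.2) did.

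**Figure D1:**
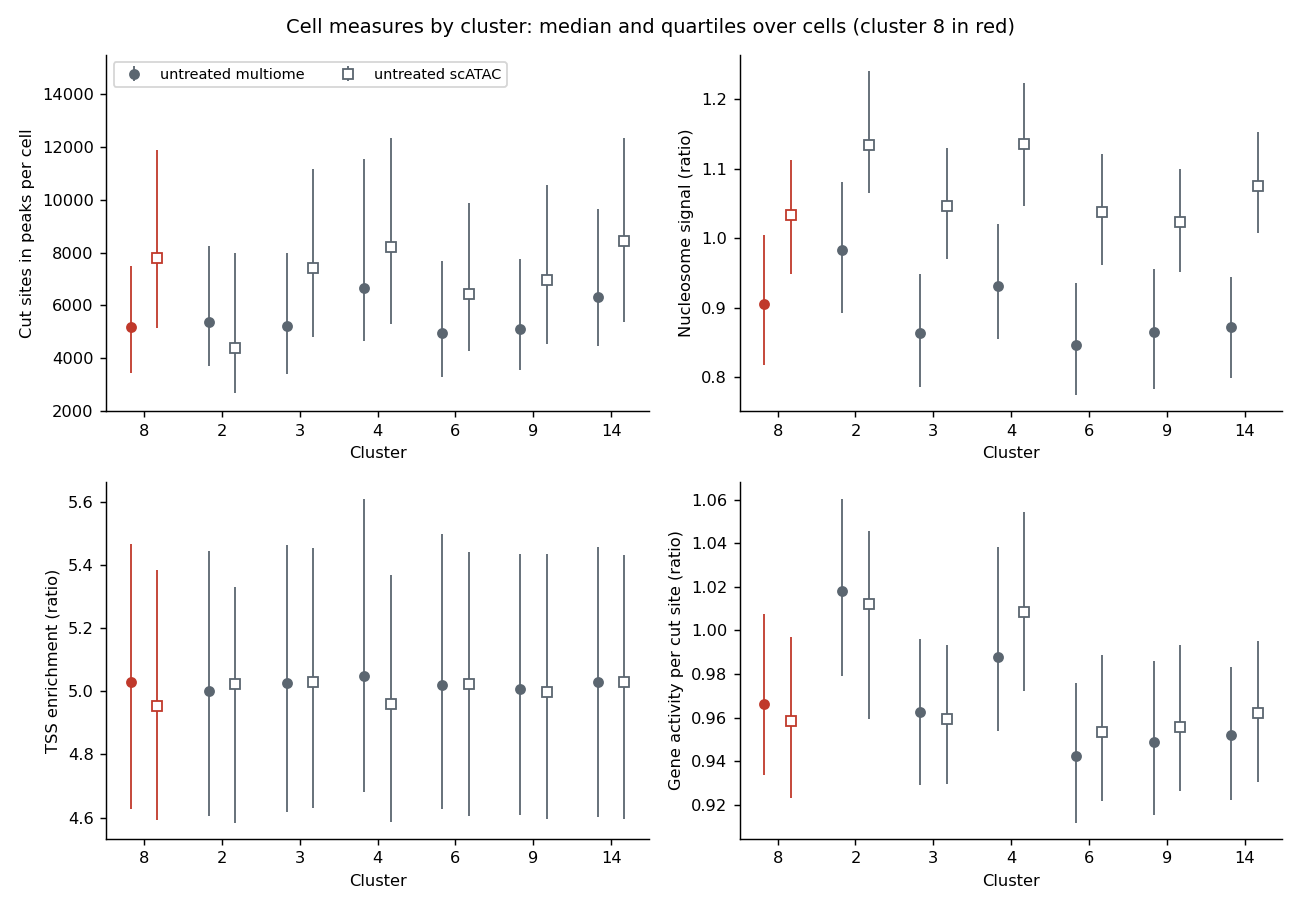
Median (points) and quartiles (lines) over cells of cut sites in peaks, nucleosome signal, TSS enrichment and gene activity per cut site, for cluster 8 (red, left) and 6 other clusters, in the untreated multiome (filled circles) and untreated scATAC library (open squares). Cluster 8 has a nucleosome signal of 0.905 and 1.03 in these libraries, and clusters 2 and 4 lie above it in both.

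The nucleosome signal compares fragments that span a nucleosome with shorter ones from open DNA, and its place differed between the libraries. In scATAC the median was 1.03 (0.948 and 1.11) in cluster 8, against 1.07 (0.990 and 1.17) in the other cells, and 35.4% (32.8 to 38.1) of cluster 8 cells lay above the median of the others. In the multiome library the medians were 0.905 (0.818 and 1.00) and 0.907 (0.816 and 1.01), with 49.4% (46.4 to 52.3) above. The quartile ranges of cluster 8 and of the other cells overlapped widely in both libraries. Both values leaned on clusters 2 and 4, the large clusters that are each frequent in 1 protocol. With these left out of the comparison, the share of cluster 8 cells above the median of the others was 62.1% in the multiome and 47.8% in scATAC.

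Set beside single clusters, the order differed between the libraries. In the multiome library its median of 0.905 lay above those of clusters 6 (0.846), 3 (0.864), 9 (0.866) and 14 (0.873), and below those of clusters 4 (0.931) and 2 (0.983). Between 59.1% and 66.4% of cluster 8 cells exceeded the medians of the 4 lower clusters, and 30.3% (27.6 to 33.1) that of cluster 2. In scATAC its median lay between those of clusters 9 (1.02) and 6 (1.04). There 53.1% (50.3 to 55.9) of cluster 8 cells exceeded the median of cluster 9 and 48.8% (46.0 to 51.6) that of cluster 6, whose interval included 50%. The medians of clusters 3 (1.05) and 14 (1.08) were exceeded by 45.1% (42.3 to 47.8) and 34.9% (32.3 to 37.6) of cluster 8 cells, and that of cluster 4 by 19.8% (17.6 to 22.1).

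Gene activity, a count over genes, was given as a total per cell. Cluster 8 cells had a median total of 5016.5 against 5150 in the other multiome cells and 7488 against 7230.5 in the other scATAC cells, with 3686.5 against 3773 and 4924 against 4808 genes detected. Divided by the cut sites of the same cell, the activity was 0.966 (0.934 and 1.01) in cluster 8 and 0.978 (0.936 and 1.02) in the other multiome cells. In scATAC it was 0.959 (0.923 and 0.997) in cluster 8 and 0.976 (0.939 and 1.02) in the other cells. Only 42.6% (39.7 to 45.5) of cluster 8 cells in the multiome and 38.3% (35.6 to 41.1) in scATAC lay above the median of the others. This lower ratio came with the comparison to clusters 2 and 4, whose medians were 1.02 and 0.988 in the multiome and 1.01 and 1.01 in scATAC. Without them the shares were 58.1% in the multiome and 50.5% in scATAC. In the multiome cluster 8 lay above clusters 6 (0.942), 9 (0.949) and 14 (0.952), and 51.5% (48.5 to 54.5) of its cells exceeded the median of cluster 3 (0.963). In scATAC 53.8% (51.0 to 56.5) exceeded the median of cluster 6 (0.953), 52.2% (49.4 to 55.0) that of cluster 9 (0.956), 49.7% (46.9 to 52.5) that of cluster 3 (0.959) and 47.2% (44.4 to 49.99) that of cluster 14 (0.962).

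Within cluster 8 the measures changed with depth. From the shallowest to the deepest quartile of its cells by cut sites, the median nucleosome signal was 0.847, 0.921, 0.929 and 0.914 in the multiome and 1.01, 1.03, 1.03 and 1.07 in scATAC. The gene activity per cut site was 0.946, 0.966, 0.979 and 0.983 in the multiome and 0.946, 0.954, 0.960 and 0.972 in scATAC. The lowest quartile thus had the lowest value of both measures in both libraries. TSS enrichment showed little relation to depth, with Spearman's rho of -0.058 over the 1120 multiome cells and -0.0025 over the 1263 scATAC cells; these cells share a library, and the rho is a description.

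On the UMAP given by the authors, where cells with similar accessible regions lie close together, cluster 8 was spread among other untreated clusters. Map and clusters both derive from the same reduction of the peaks, so the map is no independent view of them. Of the 30 nearest cells of the same library, 24.1% lay in cluster 8 in the multiome and 25.2% in scATAC. These shares were 2.06 and 1.87 times the cluster's share of the library. In the multiome, the own-cluster shares of clusters 2, 3, 6, 9 and 14 ran from 26.9% in cluster 14 to 72.3% in cluster 2, and relative to library share from 2.06 times in cluster 3 to 5.58 times in cluster 14. In scATAC, clusters 3, 4, 6, 9 and 14 had own-cluster shares of 39.1% to 66.3%, which were 2.12 to 8.13 times their library shares. A majority of own-cluster neighbours was found for 82 of the 1120 multiome cells (7.32%) and 54 of the 1263 scATAC cells (4.28%) of cluster 8. In those other clusters the share of cells with such a majority ran from 19.9% to 74.2% in the multiome and from 29.3% to 72.3% in scATAC. No own-cluster neighbour was found for 45 (4.02%) and 40 (3.17%) cells of cluster 8. That share lay within the range of the other clusters, 0.906% to 13.9% in the multiome and 1.27% to 8.74% in scATAC.

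**Figure D2:**
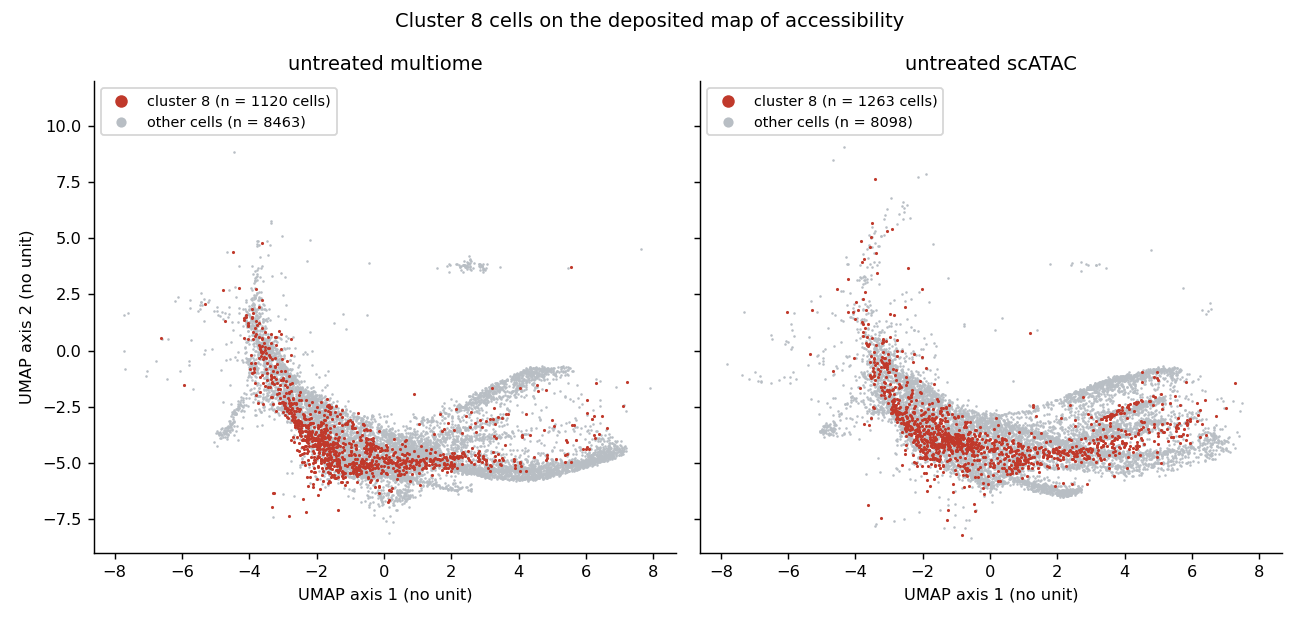
Position of each untreated cell on the deposited UMAP (axes without unit), for the untreated multiome (left) and untreated scATAC library (right), with cluster 8 cells in red and all other untreated cells in grey. Cluster 8 has its median position at -1.37 and -4.33 in the multiome and at -0.844 and -3.92 in scATAC and extends along the map among the grey cells.

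Cluster 3 and the clusters 2 and 4 supplied most of the other neighbours. In the multiome 23.4% of the neighbours lay in cluster 3, 21.2% in cluster 2 and 15.5% in cluster 9. In scATAC 24.3% lay in cluster 4, 23.4% in cluster 3 and 10.7% in cluster 9. Cluster 3 was met more often than its library share in both libraries, by 1.27 times in the multiome and 1.34 times in scATAC. Cluster 6 was met less often, at 0.623 and 0.534 times. Clusters 2 and 4 together were also met less often than their library share. They made up 21.9% of neighbours against 35.5% of the multiome library (0.616 times), and 25.7% against 32.5% in scATAC (0.789 times). Cluster 9 differed in direction, at 1.33 times its share in the multiome and 0.826 times in scATAC. Clusters 15 and 16 made up at most 0.512% of the neighbours each, and both are small. Relative to library share they were met 0.463 and 0.305 times in the multiome and 0.449 and 0.139 times in scATAC.

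**Figure D3:**
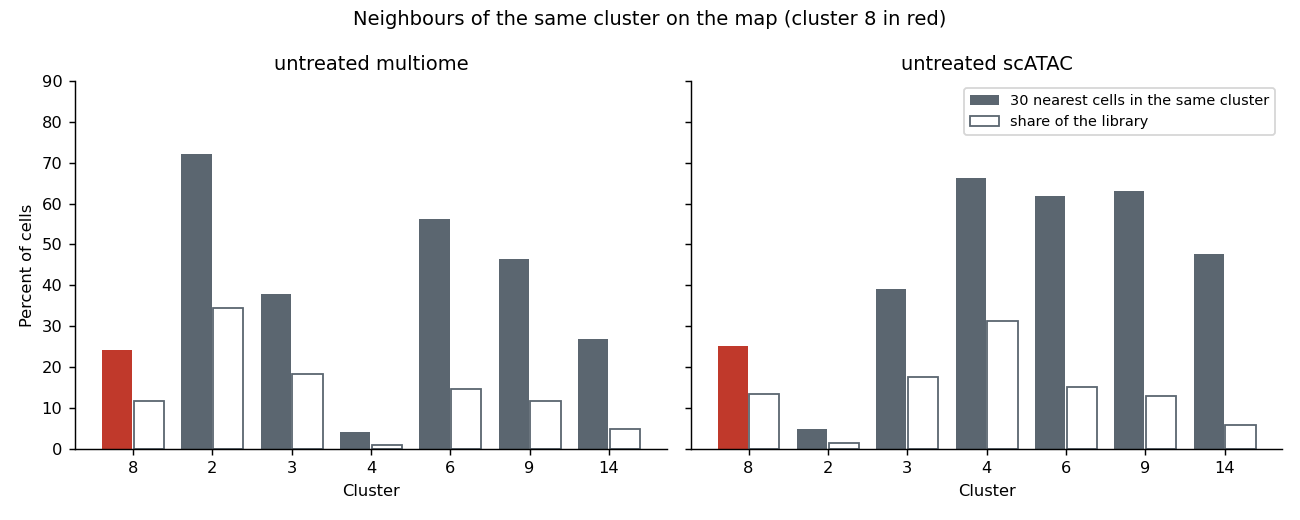
Mean percent of a cell's 30 nearest cells on the UMAP that lie in its own cluster (filled bars, cluster 8 in red at the left) beside the cluster's percent of the library (open bars), for 7 clusters in each untreated library. Cluster 8 reaches 24.1% and 25.2%, below clusters 3, 6, 9 and 14 in both libraries.

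The position of cluster 8 was shared by both protocols in part. Among the nearest 30 multiome cells of a scATAC cluster 8 cell, 18.5% were in cluster 8, which is 1.58 times its share of the multiome library. Among the nearest 30 scATAC cells of a multiome cluster 8 cell, 22.9% were, or 1.70 times the share of the scATAC library. The same ratios were 1.96 and 1.43 for cluster 3, 4.49 and 1.83 for cluster 14, 4.35 and 3.38 for cluster 6 and 4.55 and 3.43 for cluster 9. Among map squares of side 1 with at least 50 cells, the highest share in the multiome was 61.5% (48.6 to 73.3; 40 of 65 cells), at axis 1 from -3 to -2 and axis 2 from -5 to -4. In scATAC it was 34.1% (24.3 to 45.0; 30 of 88 cells), at axis 1 from 5 to 6 and axis 2 from -4 to -3, where the multiome had no square of that size. The next scATAC squares, at axis 1 from -2 to -1 and axis 2 from -5 to -3, were within its counting error, at 31.5% (112 of 356 cells) and 30.8% (102 of 331). A majority of cluster 8 cells was found in 1 of 42 such squares in the multiome and 0 of 50 in scATAC. Squares were not counted for other clusters. Squares are not independent samples, and these were ranked on their own counts.

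Lineages could be read in the multiome library. Of the 1120 cluster 8 cells there, 530 had a single called barcode, 47.3% (44.4 to 50.3), as did 4242 of the 8463 other cells, 50.1% (49.1 to 51.2). No barcode was called in 43.4% of cluster 8 cells and 40.2% of the others. The authors' classes Doublet and Multiplet, for cells with several barcodes, held 8.75% (7.16 to 10.6) of cluster 8 cells and 9.06% (8.46 to 9.69) of the others. Within cluster 8 the cells with a single barcode had a median of 5310.5 cut sites, those without one 4746.5 and those of these classes 6800.5. In scATAC 1 of 1263 cluster 8 cells and 28 of 8098 other cells had a single barcode, so that lineages cannot be compared there.

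The 530 cells carried 161 of the 484 barcodes of the library. Of these, 88 were seen in 1 cluster 8 cell, 63 in 2 to 9 and 10 in at least 10. A lineage is called based in cluster 8 when it had at least 10 cells with a single called barcode in the library and over 50% of them in the cluster. This held for 14 of the 125 lineages of that size (11.2%), beside 85.6% of the 125 that had over 50% of their cells in any 1 cluster. Counted over cells of at least the median depth, 8 of 65 lineages met the rule (12.3%), all of them among the 14. At that depth the share in cluster 8 was lower in 9 of the 14 lineages, and in 12 it stayed within its reported interval. The lowest was 14.3% in place of 55.0%, in 2-7735, which had 20 cells at any depth. The share in cluster 8 chose the 14 lineages and is given as a description. Their barcodes are printed for the 5 with most cells in cluster 8, since the barcode is what identifies the lineage. Each has 48 bases, 14 of a short part, the linker TGGT and 30 of a long part, which also give the lineage its name. Capitals mark the short part, which 51-21431 and 51-38039 share while they differ at 26 bases of the long part:
55-6980: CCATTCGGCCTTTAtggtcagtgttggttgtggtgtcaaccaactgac
18-19605: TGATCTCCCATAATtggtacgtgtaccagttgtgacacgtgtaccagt
51-21431: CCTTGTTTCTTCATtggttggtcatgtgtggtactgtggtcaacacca
2-46691: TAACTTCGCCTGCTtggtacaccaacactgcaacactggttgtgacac
51-38039: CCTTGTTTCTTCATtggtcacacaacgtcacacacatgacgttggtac

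These sequences come from the deposited barcode list, matched by the 2 numbers of the name. They rest on reading these numbers as those of the list. The list holds 10000000 barcodes, so that finding all 161 names of cluster 8 in it is no check of the numbering. The nearest pair of the 161 differed at 10 bases. The 14 lineages had 10 distinct short parts, 4 pairs of them sharing one, and any 2 of the 14 differed at 23 to 39 bases. A single misread base therefore does not turn one of these 161 names into another of them. Distances to other barcodes of the library or the list were not computed.

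Lineage 55-6980 was the most frequent in cluster 8, with 58 of its 82 cells there (70.7%, 59.6 to 80.3), 8 in cluster 3, 5 in cluster 2 and 4 each in clusters 6 and 9. It made up 10.9% (8.42 to 13.9) of the called cells of cluster 8. Lineage 18-19605 had 32 of 41 cells in cluster 8 (78.0%, 62.4 to 89.4), and lineage 51-21431 had 31 of 41 (75.6%, 59.7 to 87.6). Both thus lay in cluster 8 at a share within the counting error of 55-6980. Lineage 2-46691 had 25 of 41 cells in cluster 8 (61.0%, 44.5 to 75.8) and 7 in cluster 6. Lineage 51-38039 had 20 of 30 cells in cluster 8 (66.7%, 47.2 to 82.7) and 6 in cluster 2. These 5 lineages held 166 of the 530 called cells, 31.3% (27.4 to 35.5).

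The other 9 lineages were smaller, with 11 to 25 cells. Lineage 36-3590 had 16 of 25 cells in cluster 8, 29-67687 had 15 of 20, and 37-3897 had 13 of 20. Lineage 2-7735 had 11 of 20, 99-76284 had 10 of 15, and 37-17774 had 9 of 15. Lineages 29-86374 and 57-68538 had 7 of 12 each, and 63-86868 had 6 of 11. The share in cluster 8 ran from 54.5% to 78.0% over the 14 lineages, with a median of 64.5%. Cluster 8 held 11.1% of all called cells. The lineages nearest above the 50% limit were 63-86868 (54.5%) and 2-7735 (55.0%), and those nearest below or at it were 10-77351 (5 of 10 cells, 50.0%), 33-21562 (7 of 16, 43.8%) and 21-41964 (6 of 15, 40.0%).

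**Figure D4:**
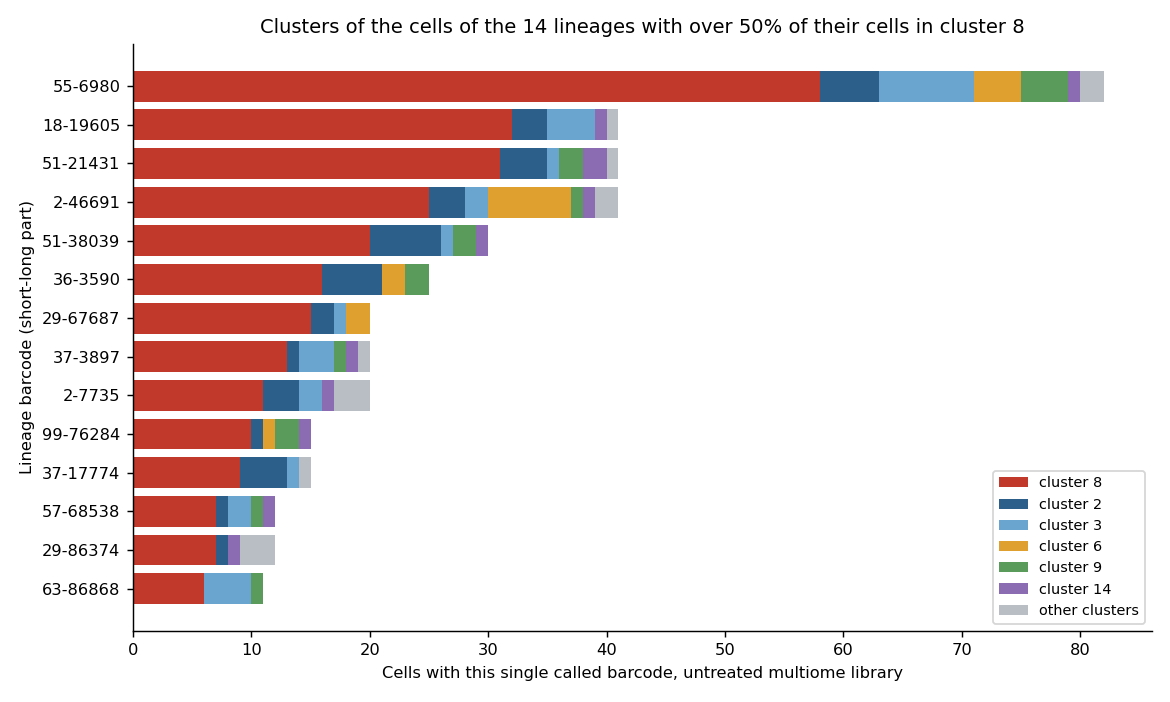
Number of untreated multiome cells with a single called barcode (x axis) for each of the 14 lineages with over 50% of their cells in cluster 8 (y axis), coloured by the cluster of the cell. Each lineage has cells in at least 3 clusters, and 55-6980 is the largest with 82 cells.

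None of the 14 lineages was found in cluster 8 alone. Of the 385 cells of the 14 lineages 260 lay in cluster 8, 67.5% (62.6 to 72.2), and each lineage occupied 3 to 7 clusters. The 125 cells outside were spread over the other untreated clusters, with 31.2% (23.2 to 40.1) in cluster 2, 23.2% (16.1 to 31.6) in cluster 3, 12.8% each in clusters 6 and 9, and 8.80% (4.48 to 15.2) in cluster 14. The cells of other lineages outside cluster 8 had 40.9% (39.4 to 42.4) in cluster 2, 21.7% in cluster 3, 16.6% in cluster 6, 10.7% in cluster 9 and 5.73% (5.04 to 6.49) in cluster 14. The intervals overlapped for each of these 5 clusters. Cluster 15 held 9 of the 125 cells (7.20%, 3.35 to 13.2), against 1.21% (0.903 to 1.60) of the cells of other lineages.

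The other 270 called cells of cluster 8 belonged to 147 lineages. Of these, 99 cells came from 50 lineages with over 50% of their cells in another cluster. They made up 3.35% (2.73 to 4.06) of the cells of the 93 lineages of that kind. By home cluster, the share of cells found in cluster 8 was 6.02% (3.89 to 8.82) for lineages based in cluster 3 and 3.20% (2.38 to 4.21) for those based in cluster 2. It was 3.69% (1.86 to 6.51) for cluster 9, 2.38% (1.23 to 4.11) for cluster 6 and 1.55% (0.322 to 4.48) for cluster 14. A further 39 cells came from 15 of the 18 lineages of at least 10 cells with no majority cluster. They made up 13.0% (9.41 to 17.3) of the 300 cells of these 18 lineages. The other 132 came from 82 lineages under 10 cells. Over all 359 lineages under 10 cells in the library, 11.7% (9.88 to 13.7) of 1128 cells lay in cluster 8. Of the 10 most frequent lineages of the library, 55-6980 had the highest share in cluster 8 and was the only one based there. The lowest share was 0, in 4 of the 10. The most frequent of these, 50-60095, had 0 of 112 cells in cluster 8, which allows a share of up to 2.68% by the limit of 3 cells for a count of 0 (exact upper bound 3.24%).

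In lineage diversity, cluster 8 lay between clusters 2 and 3 on one side and clusters 6, 9 and 14 on the other. The effective number of lineages, the inverse of the chance that 2 cells of the cluster carry the same barcode, was 36.4 in cluster 8, against 71.3 in cluster 2, 80.3 in cluster 3, 20.4 in cluster 6, 24.9 in cluster 9 and 3.15 in cluster 14. In 247 called cells, the number that cluster 14 had, 103 distinct barcodes were expected in cluster 8, 110 in cluster 2, 140 in cluster 3, 91.3 in cluster 6, 93.9 in cluster 9 and 77.0 in cluster 14. The most frequent lineage held 10.9% of the called cells in cluster 8, against 4.53% in cluster 2, 6.51% in cluster 3, 13.4% in cluster 6, 12.4% in cluster 9 and 56.3% in cluster 14. Without 55-6980, its most frequent lineage, the effective number in cluster 8 was 50.6. Based lineages supplied 49.1% (44.7 to 53.4) of the called cells of cluster 8, against 31.1% in cluster 3, 50.7% in cluster 9, 54.1% in cluster 6, 58.7% in cluster 14 and 68.2% in cluster 2. No spread between libraries is known for these values.

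Cells of the 14 lineages lay in cluster 8 less often when they were deep. Of those in the deepest quartile of called cells, above 8436.5 cut sites, 52.2% (41.5 to 62.7; 48 of 92) lay in cluster 8, against 72.4% (66.9 to 77.4; 212 of 293) of the shallower ones. The share was lower in the deepest quartile for 11 of the 14 lineages. From the shallowest quartile on, the shares were 69.2%, 79.6%, 68.1% and 52.2%. For the 93 lineages based in another cluster, the share of cells in their home cluster was 68.3% (64.8 to 71.7) in the deepest quartile and 78.1% (76.3 to 79.8) in the shallower ones, a difference in the same direction. In cells of lineages not based in cluster 8, the share in cluster 8 was between 5.11% and 7.35% in all 4 quartiles. The home clusters were chosen on the same cells, and the cells of the classes Doublet and Multiplet, which are deeper, do not enter these shares.

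**Figure D5:**
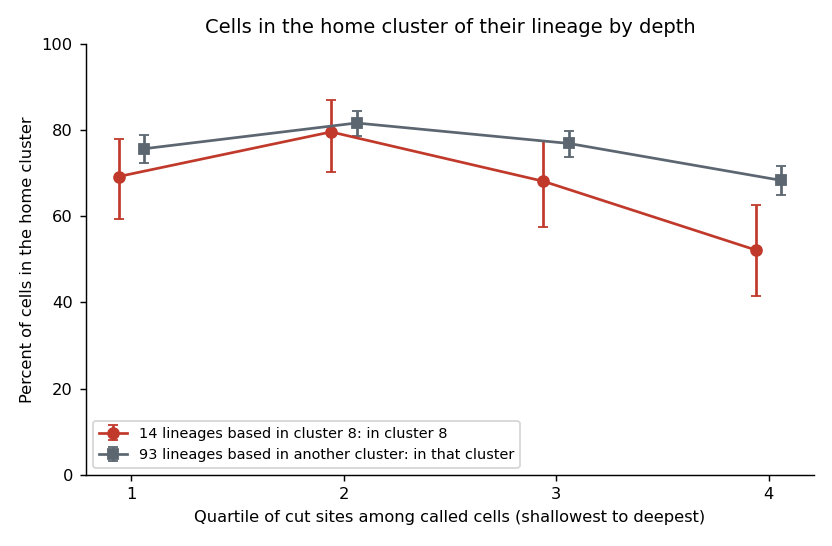
Percent of cells in the home cluster of their lineage (y axis) by quartile of cut sites among called untreated multiome cells (x axis), for the 14 lineages based in cluster 8 (red circles) and the 93 based in another cluster (grey squares), with exact 95% intervals. The red value in the deepest quartile is 52.2% and the grey one 68.3%.

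Within these 14 lineages, cells inside and outside cluster 8 had like chromatin totals apart from depth. The cells inside had a median of 4978 cut sites (3404 and 7217), against 6373 (3606 and 10138) outside, and 32.3% (26.7 to 38.4) of those inside lay above the outside median. The nucleosome signal was 0.899 inside and 0.902 outside, TSS enrichment 5.01 and 5.03, and gene activity per cut site 0.966 and 0.971. For these 3 measures between 46.2% and 48.8% of the inside cells exceeded the outside median, with intervals that included 50%. Between lineages the medians of the cluster 8 cells ran from 0.797 in 99-76284 to 0.993 in 57-68538 for the nucleosome signal and from 2997 cut sites in 37-3897 to 8139 in 37-17774, on 7 to 13 cells each.

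Inside cluster 8, cells of the same lineage lay only slightly closer on the map than cells of different lineages. Among the 260 cluster 8 cells of the 14 lineages, the median map distance was 2.22 over 3600 pairs of cells of the same lineage. It was 2.42 over 30070 pairs of different lineages. Pairs of cells were counted, so large lineages weigh more, above all 55-6980 with 58 of the 260 cells. Neighbours were also taken from all called cells of the library, in any cluster, so that the following ratios do not measure grouping inside a cluster. Of the 30 nearest such cells of a called cluster 8 cell, 1.22% carried its barcode. This is 1.95 times the share of that lineage in the library. The same ratio was 1.87 in cluster 3, 1.92 in cluster 2, 2.85 in cluster 9, 4.84 in cluster 14 and 5.83 in cluster 6.

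In the other libraries few cells of these lineages were called, and the match of names between libraries rests on reading their numbering as shared. The untreated scATAC library had 29 called cells, of which 3 belonged to lineages based in cluster 8. The 2 cells of 55-6980 lay in clusters 4 and 9 and the cell of 29-67687 lay in cluster 6, so 0 of 3 were in cluster 8 there. The 1 called scATAC cell of cluster 8 carried 36-56638, a lineage with 9 cells in the untreated multiome library and 0 of them in cluster 8. In the eribulin multiome library, 4 of the 1391 called cells belonged to the 14 lineages, 0.288% (0.0784 to 0.735), against 8.07% (7.31 to 8.88) of the called untreated multiome cells. The 14 lineages were chosen by their number of untreated multiome cells, so their share is high there by choice. A loss under eribulin was not tested. Few other lineages were seen in the eribulin multiome library either. Any cell was found there for 3 of the 14 and for 15 of the other 111 lineages of at least 10 untreated cells. Of these 15, 3 held 630 of the 1391 called cells. Of the 4 eribulin multiome cells of the 14 lineages, the 2 cells of 51-38039 lay in cluster 8. That of 51-21431 lay in cluster 0 and that of 29-67687 in cluster 12. The 5 called eribulin multiome cells in cluster 8 were these 2 and 1 each of 6-93034, 76-49517 and 55-98358. The eribulin scATAC library had 0 of 84 called cells from the 14 lineages, which by the same limit of 3 cells allows a share of up to 3.57%.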

How the data were processed

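The 4 libraries of PB3 cells were deposited as 1 table of cells, 1 table of map coordinates and 1 barcode list; the untreated libraries were analysed here. Per the series' design text, reads were processed with cellranger-atac 1.2.0 (run 1) and cellranger-arc 1.0.0 (run 3) on mm10, and cells were filtered (1000 to 75000 fragments in peaks, nucleosome signal up to 10, TSS enrichment of at least 2) and clustered in Signac 1.1.1 on components 2 to 30 of the peaks. The method of integration was not given in the sources used here. The deposited counts (count in peaks, peaks, gene activity, genes) are raw totals per cell. The count in peaks is called cut sites here, and its unit, cut ends or fragments, was not given. The deposited nucleosome signal and TSS enrichment are each a ratio per cell, named per the file headers. The axes of the deposited UMAP are a unitless score. The authors' cluster numbers and barcode calls were used as deposited, after barcode names were brought to 1 form. The untreated multiome names are written differently from those of the other libraries, and a shared numbering was inferred: 25 of 27 barcodes of the eribulin multiome and 20 of 24 of the untreated scATAC library also occur among the 484.

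Medians, shares, neighbours and barcode diversity were computed in Python 3.11.15 (scipy 1.17.1, numpy 2.4.6, pandas 2.3.3), and drawn with matplotlib 3.10.9. The functions were tested on simulated data. The untreated libraries held 61629245 (multiome) and 84615925 (scATAC) cut sites in peaks. No test was made: cells are not replicates, and each group is 1 library. Lineages named are those of at least 10 cells with over 50% in cluster 8, the 10 with most cells there, and the extremes among the 10 most frequent; others are named singly, chosen after their values were seen. The members, lists and rules were chosen with earlier results of these data known. No gene values were analysed here.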

Additional observations from a re-analysis of the deposited data

Results flagged for a closer look

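The number of cut sites per detected peak placed cluster 8 on opposite sides of the other cells in the 2 protocols: 45.9% of cluster 8 cells lay above the median of the others in the untreated multiome library and 52.9% in the untreated scATAC library. The intervals were 42.9 to 48.9 and 50.1 to 55.7. The medians were 1.086 in cluster 8 and 1.091 in the other multiome cells, and 1.133 in cluster 8 and 1.128 in the other scATAC cells. The difference between protocols was not tested.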

How the results depend on the processing

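Of 71 alternative values for the comparisons, 58 stayed within the counting interval of the value reported (for the effective number and the number of lineages, within 1.5 times), 11 moved beyond it and 2 crossed 50% where the interval of the reported value had excluded it. Leaving clusters 2 and 4 out of the other cells took the gene activity per cut site to 58.1% (multiome) and 50.5% (scATAC) of cluster 8 cells above the median of the others. It moved the nucleosome signal to 62.1% (multiome) and 47.8% (scATAC), the gene activity to 51.5% (multiome) and 56.9% (scATAC) and the scATAC cut sites to 57.6%. With each untreated multiome lineage of at least 10 cells counted once, 35.7% of the 14 based lineages exceeded the median nucleosome signal of the other lineages. Each entered by the median of all its called cells, also those outside cluster 8. This is another measure than the share of cluster 8 cells, and a share over few lineages. Weighting to the cut sites of cluster 8 gave 48.9% for the scATAC gene activity. Cells of at least the median depth gave a cluster 8 share of 14.3% in scATAC, and 8 based lineages of 65 (12.3%) in the multiome. A minimum of 20 cells per lineage gave 9 of 63 (14.3%) in place of 14 of 125 (11.2%). The number was lower because fewer lineages reach the minimum, and the share was not. A minimum of 5 cells gave 21 of 212 (9.91%). Values that crossed 50% from an interval that included it are counted as moved. The neighbour share over both untreated libraries was 22.7% for scATAC. Among the 14 lineages, the share in cluster 8 at that depth was 14.3% to 78.9%, and lower in 9. Leaving out cells with shared cell barcodes, chosen after seeing the data, moved no value beyond its interval. No paired analysis was possible because each group is 1 library and no test was made. With 1 library a group, no replicate could be left out. Lineages of 10 to 20 cells have wide intervals, and scATAC had too few called cells for any lineage.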
